A study of Rattus norvegicus with 8 samples.

Results

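The genes described are 9 transcripts that textbooks place downstream of p53 or among the marks of senescent cells: Mdm2, Ccng1, Btg2, Cdkn1a, Gadd45a, Sesn2, Gdf15, Cdkn2a and Cdkn2b. They were taken by gene symbol from the deposited expression table. All 9 have a row among its 31699 rows, and all 9 are among the 13103 genes tested. Their levels were compared between annulus fibrosus cells (AFCs) that received a control lentivirus, labelled Lv-Ctrl, and AFCs that received a lentivirus with a short hairpin RNA against the stretch-activated channel Piezo1, labelled Lv-Piezo1. There are 4 samples in each group. All of the AFCs came from Sprague Dawley rats, whose ages the labels do not state, and all were exposed to cyclic mechanical stretch (CMS), which the study used to drive apoptosis. No unstretched sample was analysed here, so the response of these genes to stretch itself cannot be read from it. Per the study's methods, tissue of several rats was pooled for each isolation and AFCs of the third generation were treated. The study describes the RNA-seq samples as biological repeats, and counts the AFCs of an isolation as an independent repeat, although the labels do not tie a sample to an isolation.

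p53 is a transcription factor that is held at a low level by the ubiquitin ligase Mdm2, itself a p53 target, and that accumulates after DNA damage and other stress. Its targets include brakes on the cell cycle (Cdkn1a, Btg2, Gadd45a), regulators of metabolism and stress signalling (Sesn2, Gdf15) and feedback regulators (Mdm2, Ccng1). Cdkn2a and Cdkn2b are not classical p53 targets. They encode the INK4 inhibitors p16 and p15, which block the cyclin D kinases, and Cdkn2a also encodes Arf, which binds Mdm2. Cdkn1a and Cdkn2a are the usual transcript marks of senescence, and senescent cells have been described in degenerating discs.

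The values are in TPM, the usual length-scaled transcript unit of RNA-seq. They are scaled for transcript length and sum to the same total in every sample, so levels of different genes can be set side by side, while sequencing depth is unknown. The correlation between samples across genes was at least 0.973 within a group and at most 0.945 between the groups. Piezo1 itself measured 30.1 ± 2.67 TPM with the Lv-Ctrl label and 39.4 ± 1.75 TPM with the Lv-Piezo1 label (SD, n = 4). The study states that it verified the knockdown in AFCs. In these samples the log2 difference was 0.38, against the direction of the label (0.22 after median-ratio scaling, adjusted p = 0.0028). All directions below are therefore those of the samples by label. Fibrous tissue genes such as Col1a1 and Dcn were abundant but moved in opposite directions by label. Col1a1 measured 3282 and 5835 TPM (log2 fold change 0.83) and Dcn 1456 and 519 TPM (-1.49). Thbs4, with 56.4 and 529 TPM (3.21), had the largest change of the tested fibrous tissue markers. Of 12 annulus fibrosus and fibrous tissue markers, 11 were tested, and 7 were higher and 3 lower at an adjusted p below 0.05. That is 90.9%, compared with 58.2% of all tested genes. Another of the 12, Tnmd, reached at most 0.08 TPM. Of 7 chondrocyte-like markers, 4 were tested, and 3 were higher and 0 lower at an adjusted p below 0.05 (75.0%). Among them, Comp measured 0.738 and 2.86 TPM (1.16). Of 6 nucleus pulposus and notochord markers with a row, 3 were tested, and 1 was higher and 1 lower (66.7%). The higher was Cd24 (3.79 and 21.9 TPM, 2.25) and the lower Foxf1 (77.6 and 50.1 TPM, -0.62). The summed TPM of 7 endothelial markers was at most 0.62. Of 10 macrophage and leukocyte markers, Adgre1, C1qa and C1qb were listed at 0 in all samples and Ptprc reached at most 0.01 TPM, but both markers that were tested were higher with the Lv-Piezo1 label. Cd68, a lysosomal protein gene, measured 0.955 ± 0.899 and 12.3 ± 0.901 TPM (log2 fold change 2.88, adjusted p = 2.7e-05), and Cd14 20.9 ± 0.324 and 25.8 ± 1.91 TPM (0.29, adjusted p = 0.0015, or 0.13 and 0.12 after median-ratio scaling). The summed TPM of these 10 markers was 21.8 to 23.6 with the Lv-Ctrl label and 37.3 to 42.3 with the Lv-Piezo1 label. The summed TPM of 10 smooth muscle and pericyte markers was 814 to 849 with the Lv-Ctrl label and 4559 to 4726 with the Lv-Piezo1 label. Of the 9 tested among them, 7 passed both thresholds given next, 5 higher and 2 lower. Acta2 (51.2 and 1344 TPM), Myh11 (1.80 and 47.9 TPM), Cnn1 (15.9 and 260 TPM) and Tagln (219 and 2730 TPM) were among the higher. The lower ones were Kcnj8 (326 and 39.1 TPM, log2 fold change -3.03) and Abcc9 (73.7 and 12.3 TPM, -2.49). The part of these differences in the results below was not tested. In bulk samples, fewer cells of one type and less RNA per cell cannot be told apart.

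None of the 9 genes passed the study's threshold for differential expression, namely an adjusted p below 0.05 together with a log2 fold change of 1 or more in either direction, which 7.67% of all tested genes passed. Smaller differences were nonetheless larger than the spread between samples for most of them. At an adjusted p below 0.05 alone, 7 of the 9 genes differed, as did 58.2% of all tested genes. Cdkn1a, Gadd45a and Btg2 were higher with the Lv-Piezo1 label, a direction taken by 41.9% of all tested genes, and Gdf15, Sesn2, Cdkn2a and Cdkn2b were lower, a direction taken by 16.3%. Mdm2 and Ccng1 did not pass. The groups did not overlap for 6 of the 9 genes, 3 in each direction, compared with 54.2% of all tested genes. The 9 genes did not move as one set, and their median log2 fold change was 0.0055, compared with 0.14 over all tested genes.

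**Figure D1:**
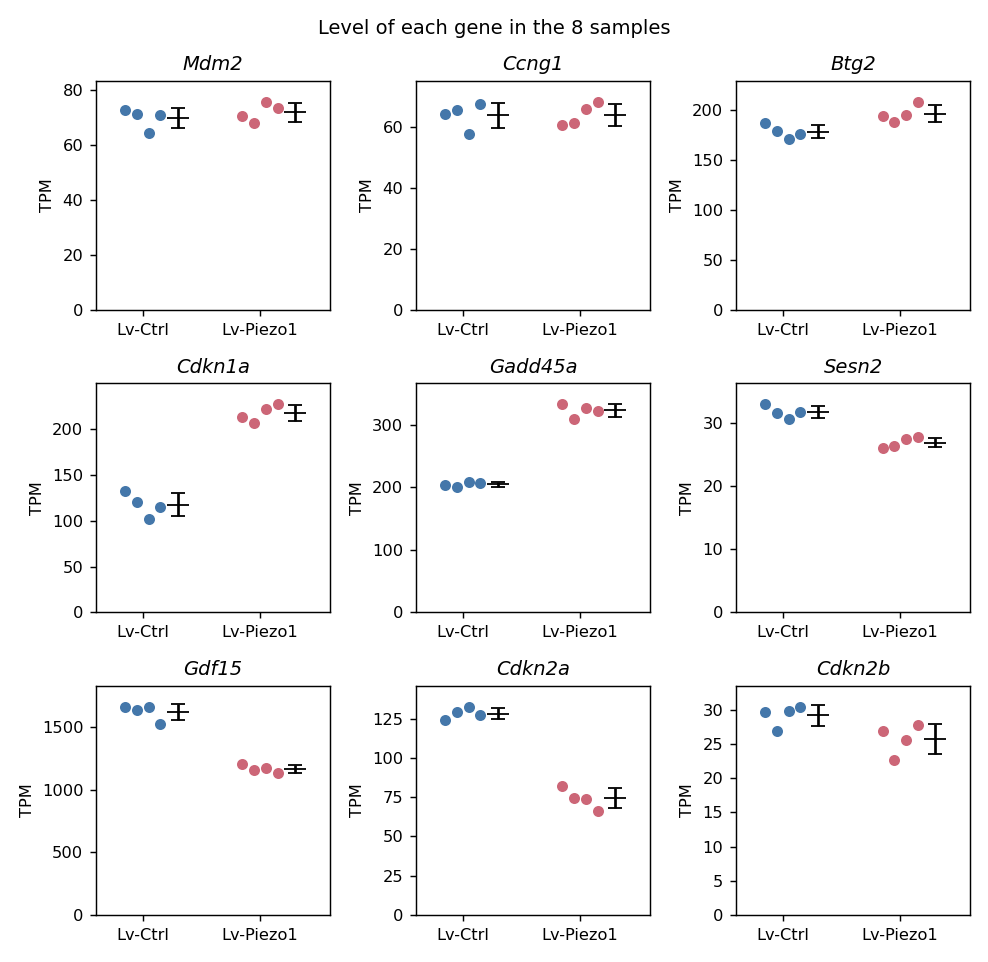
TPM of each of the 9 genes (vertical axis, starting at 0 and scaled per gene) in the 4 samples labelled Lv-Ctrl (blue) and the 4 labelled Lv-Piezo1 (red), with the mean and SD of each group as a bar beside the points (n = 4). The groups are apart for Cdkn1a, Gadd45a, Btg2, Sesn2, Gdf15 and Cdkn2a, and overlap for Mdm2, Ccng1 and Cdkn2b. The direction of Btg2 turns after median-ratio scaling.

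The scale of the whole table bears on the small differences. Since the median tested gene differed by 0.14 between the groups, the comparison was also made after median-ratio scaling, which brought that median to -0.0046. Of all genes with an adjusted p below 0.05, 72.0% were higher on the deposited values and 50.04% after scaling. Cdkn1a and Gadd45a remained higher and Gdf15, Sesn2, Cdkn2a and Cdkn2b remained lower at an adjusted p below 0.05, whereas the sign of Mdm2, Ccng1 and Btg2 turned.

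**Figure D2:**
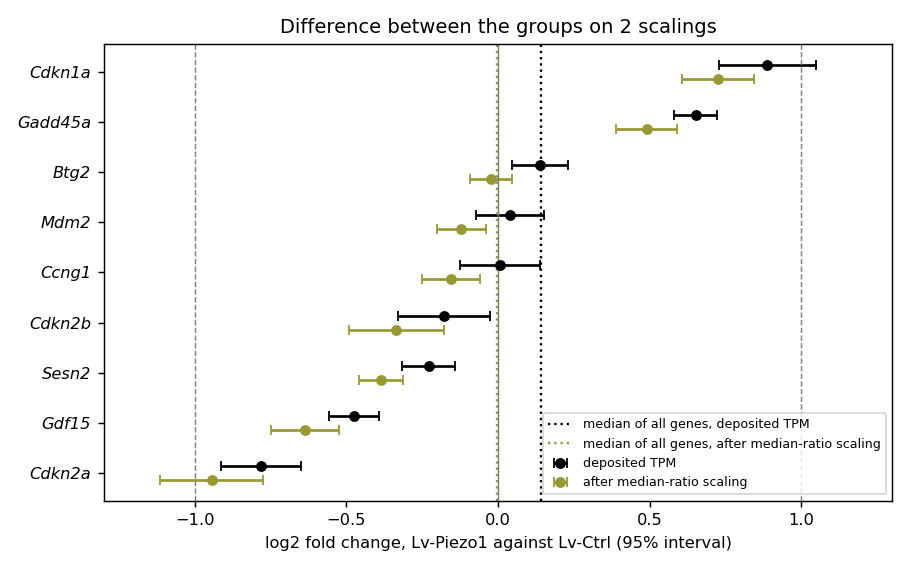
Log2 fold change of each gene with its 95% interval (horizontal axis), on the deposited TPM (black) and after median-ratio scaling (olive), with the median of all tested genes on each scale as a dotted line and the threshold of 1 in either direction as dashed lines. Cdkn1a (0.89 and 0.73) and Gadd45a (0.65 and 0.49) lie above the median of all genes on both scales, while Cdkn2a (-0.78 and -0.94) lies farthest below it.

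Among the p53 targets, Cdkn1a, which encodes the kinase inhibitor p21, showed the largest rise. It measured 132, 120, 102 and 115 TPM with the Lv-Ctrl label (in the order of replicates 1 to 4, as for all genes below) and 214, 207, 222 and 227 TPM with the Lv-Piezo1 label. Every value of the second group lay above every value of the first. The group means were 117 ± 12.4 and 217 ± 8.90 TPM (SD, n = 4), a ratio of 1.85, and the log2 fold change was 0.89 with a 95% interval of 0.73 to 1.05 (adjusted p = 7.1e-06). The interval reaches past the threshold of 1, so a change of 2-fold is within the error of this estimate.

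Gadd45a, which encodes a stress sensor that binds PCNA and p21 and takes part in repair and demethylation of DNA, had the narrowest interval of the 9 genes. Its values were 203, 200.2, 209 and 207 TPM with the Lv-Ctrl label and 332, 309, 327 and 322 TPM with the Lv-Piezo1 label. The SD was 4.01 in the first group and 10.0 in the second, with means of 205 and 322 TPM. The log2 fold change was 0.65 (interval 0.58 to 0.72, adjusted p = 3.0e-07).

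Btg2, which encodes an antiproliferative protein that recruits the deadenylation machinery, was among the abundant members. It measured 187, 179, 171 and 177 TPM with the Lv-Ctrl label and 195, 188, 196 and 209 TPM with the Lv-Piezo1 label. The lowest value of the second group was only just above the highest of the first. The log2 fold change was 0.14 (interval 0.05 to 0.23, adjusted p = 0.017), the same to 2 decimals as the median of all tested genes, and it became -0.024 after median-ratio scaling (adjusted p = 0.53).

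Gdf15, which encodes a secreted stress cytokine of the TGF-beta superfamily, had by far the highest level of the 9 genes and stood at rank 84 of all tested genes with the Lv-Ctrl label. It measured 1662, 1639, 1662 and 1523 TPM there and 1203, 1159, 1173 and 1131 TPM with the Lv-Piezo1 label, where its rank was 137. The groups were far apart. The mean fell from 1621 ± 66.6 to 1167 ± 30.2 TPM (SD, n = 4), with a log2 fold change of -0.47 (interval -0.56 to -0.39, adjusted p = 5.4e-06).

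Sesn2 encodes a sestrin, a protein that restrains mTORC1 signalling and oxidative stress. Its level was 32.9, 31.5, 30.6 and 31.7 TPM with the Lv-Ctrl label and 26.1, 26.4, 27.4 and 27.7 TPM with the Lv-Piezo1 label. The groups were apart, although the change was small, with a log2 fold change of -0.23 (interval -0.32 to -0.14, adjusted p = 8.7e-04). The fall was larger after median-ratio scaling, at -0.39.

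Mdm2 and Ccng1, the feedback regulators of p53, gave overlapping groups. Mdm2 measured 72.9, 71.6, 64.6 and 71.2 TPM with the Lv-Ctrl label and 70.7, 68.0, 75.8 and 73.4 TPM with the Lv-Piezo1 label. Its log2 fold change was 0.039 with an interval of -0.073 to 0.15 (adjusted p = 0.52), and -0.12 after median-ratio scaling (adjusted p = 0.017). Ccng1, which encodes cyclin G1, a partner of phosphatase 2A, measured 57.9 to 67.6 TPM in the first group and 60.9 to 68.4 TPM in the second. Its log2 fold change was 0.0055 (interval -0.13 to 0.14, adjusted p = 0.94), and -0.16 after scaling (adjusted p = 0.013). For both genes the intervals of the deposited values leave room only for differences far below 2-fold. The ratio of Cdkn1a to Mdm2 within each sample, which does not depend on the scaling, was 1.59 to 1.81 with the Lv-Ctrl label and 2.93 to 3.09 with the Lv-Piezo1 label. The pair was chosen after its values had been seen and is given without a test.

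The start sites of the 9 genes were searched in RefSeq windows of 300 bases (250 before and 50 after the start, assembly GRCr8) for the p53 half-site consensus, which reads the same on both strands, and for the cAMP response element TGACGTCA, also a palindrome. All 9 symbols were matched, Gdf15 with a pair of starts. The half-site was found in windows of 3 of the 9 genes and in 7.98% of all 33469 windows. The cAMP response element was found in 2 of the 9 genes and in 1.83% of all windows. The half-sites were those of Cdkn1a and Gadd45a, the members with the largest rises, and of Ccng1, whose groups overlapped. The cAMP response elements were in Cdkn2b and Btg2. These matches are letters in a short window and say nothing of binding. The 100 bases around each match, all of them upstream of the start, are shown 5′ to 3′ with the match in capitals so that the elements can be compared. The half-site begins 201 bases before the start of Cdkn1a (chr20:7150686-7150785, + strand), 48 bases before that of Gadd45a (chr4:97486800-97486899, - strand) and 232 bases before that of Ccng1 (chr10:25685027-25685126, - strand). The cAMP response element begins 96 bases before the start of Cdkn2b (chr5:109134897-109134996, - strand) and 201 bases before that of Btg2 (chr13:48087837-48087936, - strand).
Cdkn1a: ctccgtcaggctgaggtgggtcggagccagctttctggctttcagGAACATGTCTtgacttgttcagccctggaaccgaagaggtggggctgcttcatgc
Gadd45a: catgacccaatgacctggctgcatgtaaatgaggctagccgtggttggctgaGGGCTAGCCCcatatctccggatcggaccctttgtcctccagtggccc
Ccng1: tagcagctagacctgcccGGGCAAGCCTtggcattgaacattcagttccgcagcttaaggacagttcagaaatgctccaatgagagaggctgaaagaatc
Cdkn2b: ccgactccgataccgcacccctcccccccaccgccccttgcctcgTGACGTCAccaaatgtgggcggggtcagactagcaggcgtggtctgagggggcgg
Btg2: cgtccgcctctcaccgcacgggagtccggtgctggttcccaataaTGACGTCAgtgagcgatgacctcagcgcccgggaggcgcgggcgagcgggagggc

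Cdkn2a and Cdkn2b, the INK4 genes, lie next to each other in the RefSeq gene order with 1 uncharacterised locus between them. Cdkn2a showed the largest fall of the 9 genes. It measured 124, 129, 132 and 127 TPM with the Lv-Ctrl label and 81.9, 74.6, 74.1 and 66.5 TPM with the Lv-Piezo1 label. No value of the second group came near the first. The mean fell from 128 ± 3.50 to 74.3 ± 6.31 TPM (SD, n = 4), a change of -42.1%, with a log2 fold change of -0.78 (interval -0.91 to -0.65, adjusted p = 4.5e-06). A gene-level value does not separate the p16 and Arf transcripts, which share exons.

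Cdkn2b was lower by a margin close to its error. It measured 29.7, 27.0, 29.9 and 30.5 TPM with the Lv-Ctrl label and 26.9, 22.7, 25.7 and 27.8 TPM with the Lv-Piezo1 label. One sample labelled Lv-Ctrl, replicate 2, lay within the range of the other group. The log2 fold change was -0.18 (interval -0.33 to -0.03, adjusted p = 0.045), and a two-sided exact test that permuted the group labels gave p = 0.057. Leaving out any of 6 of the 8 samples brought the adjusted p above 0.05, as did fits without the filter on low values or without limma's trend.

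The intervals of Cdkn2a and of its neighbour Cdkn2b did not overlap. The ratio of Cdkn2a to Cdkn2b within each sample was 4.17 to 4.78 with the Lv-Ctrl label and 2.39 to 3.28 with the Lv-Piezo1 label. Mtap, the nearest named protein-coding gene on the other side of Cdkn2a, encodes a methionine salvage enzyme and rose from 25.8 ± 2.10 to 41.5 ± 2.35 TPM (SD, n = 4), with a log2 fold change of 0.67 (adjusted p = 2.7e-05). The fall of Cdkn2a was therefore not shared by Mtap. Cdkn1a and Cdkn2a, the pair of senescence marks, moved in opposite directions: Cdkn1a had 0.773 to 1.06 times the TPM of Cdkn2a with the Lv-Ctrl label and 2.61 to 3.42 times with the Lv-Piezo1 label. These pairs were likewise chosen after their values had been seen.

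The families of the 9 genes did not share one direction. All 3 GADD45 genes rose, with Gadd45b going from 102 ± 5.70 to 158 ± 2.20 TPM and Gadd45g from 398 ± 22.7 to 671 ± 30.6 TPM (SD, n = 4). Their log2 fold changes were 0.63 and 0.75, close to the 0.65 of Gadd45a, and all 3 kept their direction after scaling. All 3 sestrins fell, with log2 fold changes of -0.46 for Sesn1 (adjusted p = 4.0e-04), -0.23 for Sesn2 and -0.37 for Sesn3 (adjusted p = 0.020), although the groups overlapped for Sesn3, whose adjusted p rose to between 0.053 and 0.058 when any of 5 of the 8 samples was left out.

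The kinase inhibitors were split. In the CIP/KIP family, Cdkn1c, which encodes p57, rose from 4.79 ± 0.549 to 9.25 ± 0.900 TPM, a log2 fold change of 0.82 (adjusted p = 5.4e-05) that was near the 0.89 of Cdkn1a. Cdkn1b, which encodes p27, had 45.3 ± 3.32 and 48.2 ± 3.49 TPM (adjusted p = 0.30), with a log2 fold change of 0.086 that became -0.074 after scaling. In the INK4 family, Cdkn2d rose from 15.3 ± 1.98 to 20.9 ± 1.58 TPM (log2 fold change 0.43, adjusted p = 0.0030) while Cdkn2a and Cdkn2b fell, and Cdkn2c had 12.5 ± 1.19 and 12.03 ± 0.394 TPM (adjusted p = 0.61).

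In the BTG/TOB family, Btg1 fell from 247 ± 10.6 to 207 ± 2.92 TPM (log2 fold change -0.25, adjusted p = 2.4e-04) and Btg3 rose from 84.5 ± 1.89 to 105 ± 1.68 TPM (log2 fold change 0.31, adjusted p = 2.4e-05). Tob2 rose by 0.90 on the log2 scale with a wide interval of 0.29 to 1.52 at a level of 2.38 to 5.26 TPM (adjusted p = 0.017), and Tob1 had 53.7 ± 4.93 and 49.8 ± 5.04 TPM (adjusted p = 0.31). The relatives of the feedback regulators, Mdm4 (10.9 and 11.8 TPM, log2 fold change 0.12, or -0.031 after scaling) and Ccng2 (17.6 and 16.1 TPM), did not pass, as was the case for Mdm2 and Ccng1. After median-ratio scaling Ccng2 (-0.27, adjusted p = 0.0032), Tob1 (-0.27, adjusted p = 0.0084) and Cdkn2c (-0.19, adjusted p = 0.019) were lower and passed.

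Among the other p53 targets, a list of 40 genes without the 9, more rose than fell, as was the case over all tested genes. Of the 38 tested, 20 rose and 4 fell at an adjusted p below 0.05 and 14 did not pass. That is 63.2% of them, compared with 58.2% of all tested genes, of which 41.9% were higher and 16.3% lower. Their median log2 fold change was 0.30, compared with 0.14. After median-ratio scaling, 17 were higher and 8 lower, with a median of 0.15. A single target, Lif, passed both thresholds, which 7.67% of all tested genes passed. Lif encodes a cytokine of the interleukin 6 family and went from 9.42 ± 0.766 to 37.2 ± 1.87 TPM (log2 fold change 1.88, adjusted p = 2.9e-08).

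The targets linked to apoptosis that are named next were chosen after their values had been seen, and all but Ei24 rose. Bbc3, which encodes Puma, went from 4.81 ± 0.579 to 10.4 ± 0.386 TPM, with a log2 fold change of 0.98 just under the threshold. Bax went from 53.5 ± 5.59 to 66.9 ± 4.33 TPM (0.32), Pmaip1, which encodes Noxa, from 51.1 ± 3.51 to 62.6 ± 5.07 TPM (0.29), and the death receptor gene Fas from 32.4 ± 1.03 to 42.7 ± 2.34 TPM (0.39). Each of these had an adjusted p of at most 0.0055, and each was higher in all samples labelled Lv-Piezo1 than in any labelled Lv-Ctrl. After median-ratio scaling Bax (0.16, adjusted p = 0.19) and Pmaip1 (0.13, adjusted p = 0.058) no longer passed. Bbc3 (0.84, adjusted p = 4.6e-05) and Fas (0.23, adjusted p = 0.0068) still did. Tnfrsf10b, another death receptor gene, rose from 6.47 ± 1.76 to 11.2 ± 2.05 TPM (0.72, adjusted p = 0.0069, or 0.57 and 0.017 after scaling). Ei24, a target that has also been linked to apoptosis, fell from 51.5 ± 0.850 to 46.6 ± 1.58 TPM (-0.14, adjusted p = 0.0070). The study followed BAX as a protein, which this table does not measure.

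Phlda3, a p53 target that restrains Akt, rose from 177 ± 7.16 to 277 ± 9.83 TPM (log2 fold change 0.64), and the stress kinase gene Plk3 from 39.0 ± 2.64 to 70.5 ± 1.06 TPM (0.84). Cd82, a tetraspanin gene also listed as a p53 target, fell from 504 ± 3.30 to 311 ± 2.08 TPM (-0.70). The adjusted p of these 3 genes was at most 1.3e-06.

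In the list of regulators and relatives of p53, 8 of 17 tested genes were higher and 4 lower at an adjusted p below 0.05 (4 and 5 after scaling). That is 70.6%, compared with 58.2% of all tested genes, of which 41.9% were higher and 16.3% lower. The list's median of 0.14 was that of all genes. Ppp1r13l, which encodes the p53 inhibitor iASPP, was the only gene of this list past both thresholds, from 20.3 ± 1.38 to 44.4 ± 2.05 TPM (log2 fold change 1.09, 0.93 after scaling). Chek2, which encodes a kinase that activates p53 after DNA breaks, rose from 2.35 ± 0.283 to 4.82 ± 0.666 TPM (0.80). Rchy1, which encodes a ubiquitin ligase of p53, fell from 38.1 ± 1.56 to 25.2 ± 1.86 TPM (-0.58).

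Lists of genes linked to p21 and the INK4 proteins differed. One list holds cell cycle genes that p21 is known to hold down through the DREAM complex. All 15 of its tested genes rose at an adjusted p below 0.05, as did 41.9% of all tested genes. Their median log2 fold change was 0.86 (0.73 after scaling), compared with 0.14 over all tested genes. Aurkb (from 3.82 to 10.03 TPM) and Plk1 (from 3.46 to 8.88 TPM), which encode mitotic kinases, passed both thresholds, as did 7.67% of all tested genes. These rises stood beside the rise of Cdkn1a. The list of cyclin, kinase and RB genes also holds the inhibitors Cdkn1b, Cdkn1c, Cdkn2c and Cdkn2d, given above as relatives. Of its 17 tested genes, 8 rose, with Cdkn1c and Cdkn2d among them, none fell and 9 did not pass. After scaling 8 were higher and 2, Cdkn2c and Cdk6, were lower. The share that rose, 47.1%, was near the 41.9% of all tested genes. Ccne1, which encodes cyclin E1, went from 5.55 ± 0.922 to 13.5 ± 0.641 TPM (1.16), Ccnd1, which encodes cyclin D1, from 144 ± 9.67 to 210.2 ± 4.53 TPM (0.55), and Rb1 from 10.4 ± 0.702 to 15.4 ± 1.00 TPM (0.53). The kinases that p16 and p15 block did not pass. Cdk6 had 11.6 ± 0.704 and 11.6 ± 0.424 TPM (adjusted p = 0.89), with a log2 fold change of 0.010 that became -0.14 after scaling (adjusted p = 0.013). Cdk4 had 101 ± 5.30 and 108 ± 2.14 TPM (adjusted p = 0.075), with a log2 fold change of 0.094 that became -0.067 after scaling.

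Polycomb proteins are known to silence the Cdkn2a and Cdkn2b genes, and the demethylase Kdm6b to oppose them. Of 12 such genes, 8 were higher at an adjusted p below 0.05, Kdm6b among them, and none lower. That is 66.7%, compared with 41.9% of all tested genes that were higher. The median was 0.25, compared with 0.14 over all tested genes (0.10 after scaling, where 5 were higher and 1 lower). Ring1 rose from 21.7 ± 1.09 to 39.6 ± 1.39 TPM (0.84) and Ezh2 from 4.02 ± 0.355 to 6.49 ± 0.449 TPM (0.58). Kdm6b, the opposing gene, rose as well, from 14.8 ± 1.76 to 20.3 ± 1.21 TPM (0.44, adjusted p = 0.0019). Bmi1 (adjusted p = 0.48), Rnf2 (0.59), Eed (0.95) and Cbx8 (0.070) did not pass. After scaling the 1 lower gene was Eed (-0.15, adjusted p = 0.049). Any link of these genes to the fall of Cdkn2a was not tested.

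Other marks of senescence did not take a single direction. Lmnb1, which encodes the lamin that senescent cells are known to lose, rose from 6.31 ± 0.686 to 15.5 ± 0.679 TPM (1.18). Glb1, which encodes the lysosomal galactosidase behind the usual senescence stain, rose from 91.4 ± 3.65 to 111 ± 3.95 TPM (0.27, 0.11 after scaling). Hmgb1, a chromatin protein that senescent cells release, fell from 15.3 ± 1.34 to 6.79 ± 0.408 TPM (-1.07), a value that is uncertain because the gene has many near-identical copies. Uchl1, which encodes a deubiquitinase, rose by 1.37. All 12 tested genes of this list differed at an adjusted p below 0.05, compared with 58.2% of all tested genes. Of the 12, 10 were higher, a direction taken by 41.9% of all tested genes. After scaling 6 were higher and 2 lower.

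The secretory genes of senescent cells differed in both directions. Of 38 tested, 17 passed both thresholds, 7 higher and 10 lower, where 7.67% of all tested genes passed. The median over the list was -0.099, compared with 0.14 over all tested genes. At an adjusted p below 0.05 alone, 14 were higher and 17 lower, and after scaling 12 and 22. That is 81.6% of the list before scaling, compared with 58.2% of all tested genes, of which 41.9% were higher and 16.3% lower. The largest rises were those of Igfbp2 (3.33), Cxcl6 (2.04) and Csf1 (1.46). The largest falls were those of the chemokine gene Ccl20, from 134 ± 4.58 to 14.3 ± 2.46 TPM (-3.15), of Igfbp4 (-2.09) and of the protease inhibitor gene Serpine2, from 16425 ± 378 to 4074 ± 128 TPM (-2.01). The adjusted p of these 6 genes was at most 1.2e-06. The summed TPM of the list, most of it Spp1 and Serpine2, was 52985 to 57045 with the Lv-Ctrl label and 33107 to 35259 with the Lv-Piezo1 label.

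Sesn2 and Gdf15 are also known targets of the integrated stress response, which acts through the factor Atf4. Of 19 tested genes of that response, 6 rose and 8 fell at an adjusted p below 0.05. That is 73.7%, compared with 58.2% of all tested genes, of which 41.9% were higher and 16.3% lower. The median of the list was -0.089, compared with 0.14 over all tested genes (-0.25 after scaling, where 4 were higher and 11 lower). Atf4 itself went from 689 ± 26.6 to 647 ± 4.75 TPM (-0.089, adjusted p = 0.036), a call that was lost with quantile normalization, without limma's trend and without any of 6 of the 8 samples. Chac1, which encodes a glutathione-degrading enzyme, fell from 128 ± 4.62 to 58.4 ± 1.45 TPM (-1.12 on the log2 scale) and Atf3 from 33.0 ± 0.937 to 22.1 ± 0.681 TPM (-0.56), the direction of Sesn2 and Gdf15. Ddit4, which encodes an mTORC1 inhibitor, rose from 28.8 ± 0.506 to 77.8 ± 1.95 TPM (1.40), Ddit3, which encodes CHOP, from 111 ± 12.6 to 163 ± 6.53 TPM (0.55) and Trib3 by 0.59, the opposite direction.

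**Figure D3:**
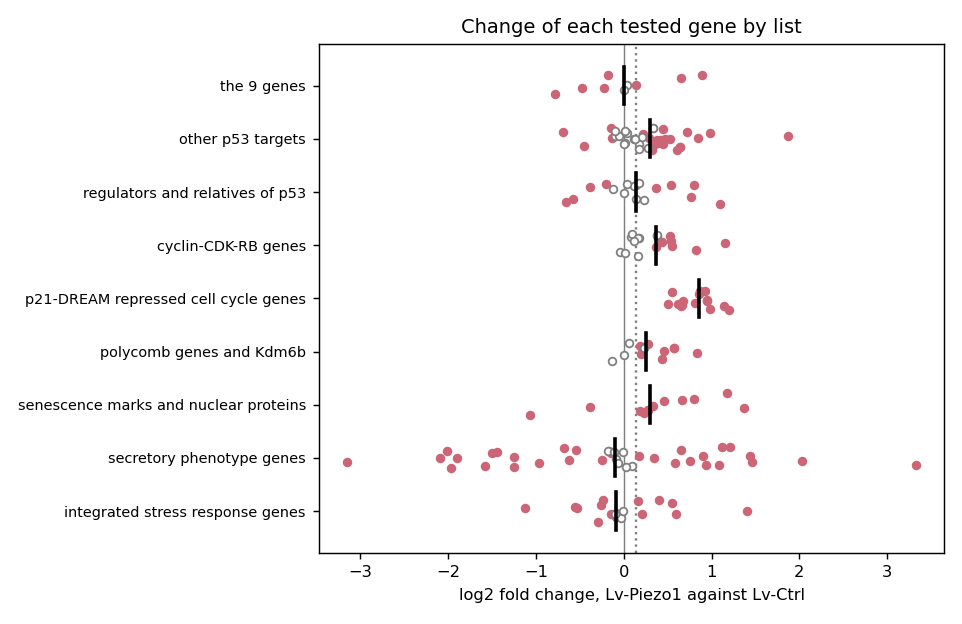
Log2 fold change of each tested gene (points, horizontal axis) in the 9 genes and in 8 related lists, red for an adjusted p below 0.05 and open for the others, with the median of each list as a black bar and the median of all tested genes as a dotted line. The cell cycle genes lie at a median of 0.86 with no gene below 0, while the secretory genes spread from -3.15 to 3.33.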

How the data were processed

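RNA-seq was measured in 8 samples, 4 with each label, grouped by their titles. The authors removed adapter, poly-N and low-quality reads, mapped the rest to a rat genome with HISAT2, reconstructed transcripts with StringTie, and deposited TPM values, although their methods name FPKM. The submitters' processing notes name the mouse build mm10, although the identifiers are those of rat Ensembl genes, so the build is not clear and no value was tied to a coordinate. TPM keeps no depth, so precision rests on the spread between samples.

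The fit used limma 3.58.1 (R 4.3.3, empirical Bayes with a trend) on log2(TPM + 1), a scale that understates changes of low genes, over genes with a mean of at least 1 TPM, with Benjamini-Hochberg adjustment over all of them. Every adjusted p and fold change comes from this fit unless scaling or another alternative is named, where the model was fitted again with that change. The main fit was tested on simulated data. Median-ratio scaling used genes above 0 in every sample. Motifs were searched in RefSeq promoter windows.

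The members and lists were chosen with earlier results of these data known. The named genes are the 9, their family relatives and the largest called changes in each list (up to 3 each way). Others were chosen after their values were seen. A rule naming the genes most similar to each called member named none. Symbols with no row were not analysed here. One gene was taken out of the list of regulators and is not reported here. The alternatives were another pseudocount (0.1), no filter, a mean of at least 5 TPM, median-ratio scaling, quantile normalization, no trend, a replicate block, no fold threshold, and leaving out each sample.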

Additional observations from a re-analysis of the deposited data

Results flagged for a closer look

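In groups of 4 samples, a sample was singled out where its gap to the nearest other sample as a share of the range of its group exceeded the 95% critical value of Dixon's test. Of 162 groups examined (each named gene in each set of 4 samples), 14 had such a sample, and chance gives about 1 in 20.

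Among the 9 genes, this was the case only for Gdf15, whose replicate 4 labelled Lv-Ctrl had 1523 TPM against 1639 to 1662 TPM in the other samples of its group, and still lay above all samples labelled Lv-Piezo1. Among relatives and p53 targets, low values were found for Btg1 labelled Lv-Piezo1 (202 TPM against 208 to 209), Tob1 labelled Lv-Ctrl (46.4 against 55.4 to 57.1), Fas labelled Lv-Piezo1 (39.2 against 43.7 to 44.1) and Pmaip1 labelled Lv-Ctrl (45.9 against 52.5 to 53.04), and a high value for Cd82 labelled Lv-Ctrl (509 against 502 to 503). In the other lists, high values were found for Ddit3 labelled Lv-Ctrl (130.3 TPM against 104 to 106) and, labelled Lv-Piezo1, for Ccne1 (14.5 against 13.1 to 13.3), Chac1 (60.5 against 57.4 to 57.9) and Ccl20 (17.98 against 12.8 to 13.3). Low values were found labelled Lv-Piezo1 for Atf3 (21.04 TPM against 22.3 to 22.5), Igfbp2 (21.8 against 24.5 to 24.8) and the smooth muscle actin gene Acta2 (1284 against 1359 to 1369), and labelled Lv-Ctrl for Dcn (1352 against 1483 to 1498).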

How the results depend on the processing

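Cdkn1a, Gadd45a, Gdf15, Sesn2 and Cdkn2a kept their direction and an adjusted p below 0.05 in every alternative run. Mdm2 became -0.12 with median-ratio scaling and -0.051 with quantile normalization, Ccng1 -0.16 and -0.083, and Btg2 -0.024 with median-ratio scaling. Ccng1 ranged from -0.041 to 0.033 when 1 sample was left out, below 0 without Lv-Ctrl replicate 3 or Lv-Piezo1 replicate 3 or 4. Cdkn2b kept -0.18 without the filter and without the trend but lost its adjusted p (0.063 and 0.058), and it ranged from -0.22 to -0.12 without single samples, with an adjusted p above 0.05 in all of these but those without Lv-Ctrl replicate 2 or Lv-Piezo1 replicate 4. Of named genes outside the 9, Cdkn1b (-0.074 and -0.025) and Mdm4 (-0.031 and -0.064) turned under both scalings, and Cdk4 (-0.067) under the median ratio. Cdk6 (-0.14 and -0.17), Rnf2 (-0.096 and -0.077) and Eed (-0.15 and -0.13) also turned under both scalings, and ranged from -0.027 to 0.031, -0.034 to 0.11 and -0.020 to 0.057 without single samples. Cd14 no longer passed under either scaling, Bmi1 passed with quantile normalization (-0.32) and Cbx8 without Lv-Ctrl replicate 2 (0.32). The cause was not tested.

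With no fold threshold, 3 of the 9 genes were higher and 4 lower, and the genes that passed, compared with those past both thresholds, were 24 and 1 of the other p53 targets, 12 and 1 of the regulators and relatives of p53, 8 and 1 of the cyclin, kinase and RB genes, 15 and 2 of the cell cycle genes held down by p21, 8 and 0 of the polycomb list, 9 and 0 of the family relatives, 31 and 17 of the secretory genes, 12 and 3 of the senescence marks and 14 and 2 of the stress response genes. A pseudocount of 0.1 gave 2 other p53 targets, 2 regulators, 9 of the cell cycle genes held down by p21 and 1 relative. Median-ratio scaling gave 0 regulators, and quantile normalization gave 0 regulators, 0 cyclin, kinase and RB genes and 1 cell cycle gene. Leaving out single samples gave 1 to 2 other p53 targets (2 without Lv-Ctrl replicate 1 or 3), 2 to 5 of the cell cycle genes (5 without Lv-Ctrl replicate 4) and 0 to 1 relatives (1 without Lv-Ctrl replicate 1 or 2 or Lv-Piezo1 replicate 2). Over all genes, 1005 passed both thresholds, and 628 where a mean of at least 5 TPM was asked. Of the genes past both thresholds, 64.1% were higher on the deposited values, 52.3% with median-ratio scaling and 48.8% with quantile normalization. Equal replicate numbers did not pair the samples (correlations of their deviations from -0.058 to -0.012). With the replicate block 1004 genes passed both thresholds and 6971 an adjusted p below 0.05 alone, compared with 7626 without it. The block turned none of the calls of the 9 genes or list counts, and of the other named genes Atf4 lost its adjusted p (0.086). Atf4 also lost it with quantile normalization (0.081), without the trend (0.091) and without 6 of the 8 samples (0.057 to 0.085), all but Lv-Ctrl replicates 2 and 3. Sesn3 lost it without Lv-Ctrl replicate 1, 2 or 4 or Lv-Piezo1 replicate 1 or 2 (0.053 to 0.058).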
